A study of Mus musculus with 18 samples.

Results

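The comparison set MDP against water in wild-type mouse macrophages and covered 6 of the 18 libraries of the series, 3 with water and 3 with MDP. Of 56748 genes in the count table, 14263 had enough counts in these 6 libraries to be tested. The cells were bone marrow-derived macrophages (BMDMs) of wild-type C57BL/6J mice, grown with supernatant of L929 cells, a fibroblast line that secretes the macrophage growth factor M-CSF. On day 7 of differentiation they received water or MDP for 24 h in IMDM without serum. The dose is not given in the sources used here. MDP is written in the labels as MurNAc-D-Ala-L-Gln. The established NOD2 agonist of that name is MurNAc-L-Ala-D-isoGln, so the identity of the compound cannot be settled here. BMDMs from TLR4-knockout mice, treated with water or MDP in the same way, served as a second set of 6 libraries, and the remaining 6 libraries (GM, GlcNAc-MurNAc, in both genotypes) were used only to separate stromal genes. The 3 samples of a group are numbered as biological replicates with no word on whether each came from its own mouse or dish. All p-values therefore rest on the variation among these samples, part or all of which may be technical.

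Muramyl dipeptide is the smallest active piece of bacterial peptidoglycan. In macrophages it is sensed in the cytosol by NOD2, which recruits the kinase RIPK2. Ubiquitin ligases then build chains on RIPK2 that bring in the IKK and TAK1 kinases, and NF-kB and MAP kinase pathways start the transcription of cytokine genes. Macrophages also answer many microbial products with type I interferon, which acts back through the receptor IFNAR, JAK kinases and STAT proteins on genes that carry an interferon-stimulated response element (ISRE).

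Total counts were 16039614 to 20615960 per library, and mitochondrial genes took 3.04% to 3.79% of them. Macrophage identity was present in every library: the lysozyme gene Lyz2 was at 22065, 22439 and 24745 CPM in water and 25363, 23983 and 24682 CPM with MDP, and the M-CSF receptor gene Csf1r was at 786, 789 and 627 and 983, 922 and 1018 CPM (CPM, counts scaled to library size with edgeR's TMM factors). Of 20 tested macrophage identity genes, 0 rose and 1 fell, the mannose receptor gene Mrc1, against 5.13% and 4.02% of all tested genes, and the median log2 fold change was 0.11 against -0.038 over all tested genes. When water replicate 3, described next, was left out, 5 rose and 6 fell, against 18.1% and 19.5% of all tested genes. Water replicate 3 stood apart. Its log2 CPM correlated with water replicates 1 and 2 at r = 0.945 and 0.95, whereas replicates 1 and 2 correlated at 0.9935 and the MDP replicates with each other at 0.992 to 0.994. In water replicate 3, 1600 genes (11.2% of those tested) were at least 2-fold lower than the mean of replicates 1 and 2, and 713 (5%) at least 2-fold higher. All 39 cell cycle genes, all 16 guanylate-binding and immunity-related GTPase genes and 51 of 58 stromal genes were lower there than in both other water libraries, and 21 of 22 targets of the antioxidant factor NRF2 were higher. List counts, and values that move by over 1.5 times without this library, are therefore given with and without it.

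**Figure D1:**
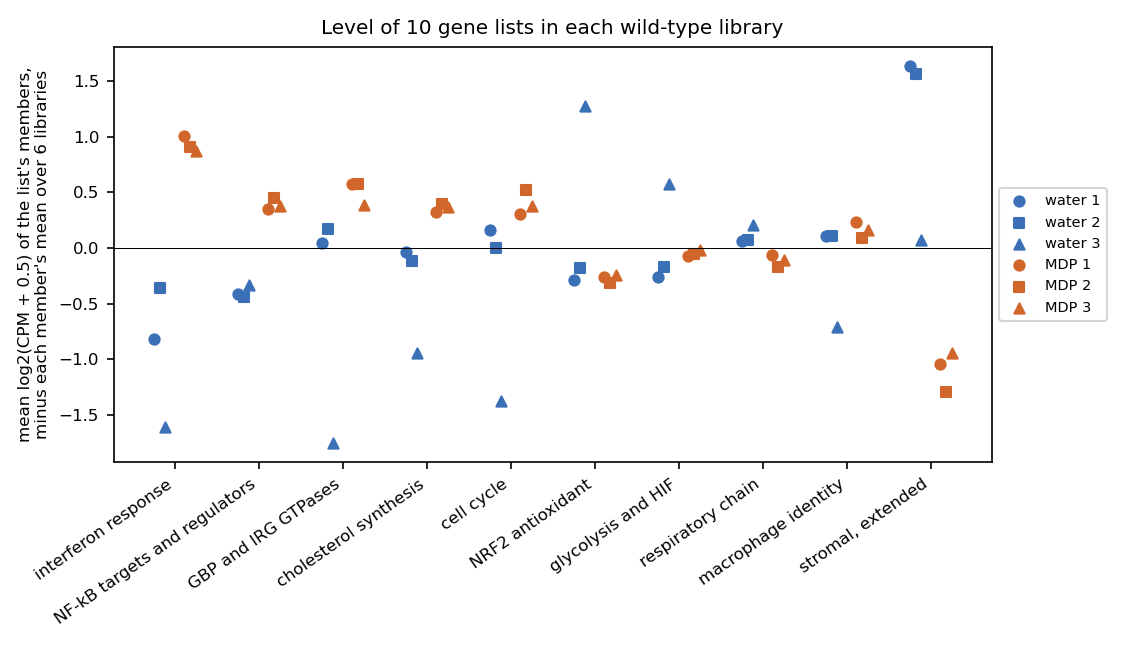
Mean level of 10 gene lists in each of the 6 wild-type libraries (y axis: mean log2(CPM + 0.5) of the tested members after subtracting each member's own mean over the 6 libraries; blue, water; orange, MDP; circle, square and triangle, replicates 1, 2 and 3). The MDP libraries lie close together in every list, while water replicate 3 lies away from water replicates 1 and 2 in 8 of the 10 lists, the exceptions being NF-kB targets and the respiratory chain.

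With all 6 libraries, 731 genes were higher with MDP (5.13% of those tested) and 573 were lower (4.02%) at an adjusted p below 0.05, 9.14% of tested genes in all. Among them, 478 rose and 312 fell at least 2-fold. Without water replicate 3, 2679 genes were higher (18.1% of 14763 tested) and 2873 lower (19.5%), and all 731 and all 573 genes passed again in the same direction. The spread between libraries of a group, the biological coefficient of variation, was 24.5% with the 6 libraries and 7.45% without water replicate 3. Leaving out any other single library left 186 to 574 genes past the threshold. All MDP libraries lay above all water libraries for 2804 genes (19.7%) and below them for 2683 (18.8%). The counts of each list below stand against 5.13% higher and 4.02% lower with 6 libraries, and 18.1% and 19.5% without water replicate 3. A list near these shares is not set apart from all tested genes.

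**Figure D2:**
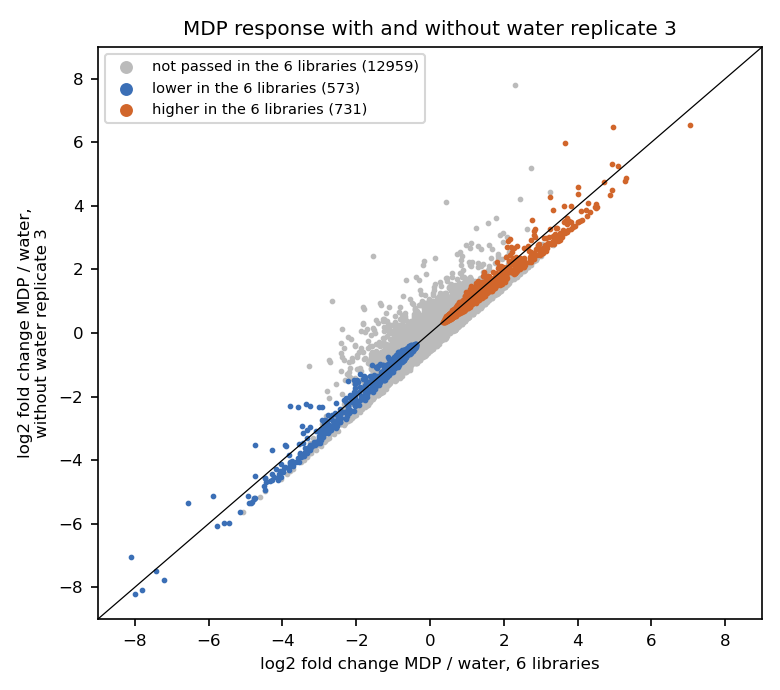
log2 fold change of MDP against water for each tested gene, with all 6 libraries (x axis) and without water replicate 3 (y axis); the line marks equal values. The 731 higher genes (orange) and the 573 lower genes (blue) keep their direction, and grey genes away from the line have different values with and without that library.

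Genes of the sensing pathway passed at a few steps. Nod2, the muramyl peptide sensor, was detected at 15.5, 11.8 and 10.1 CPM in water replicates 1, 2 and 3 and 13.1, 15.4 and 13 CPM in MDP replicates 1, 2 and 3. The groups overlapped (log2 fold change 0.15, SE 0.19, adjusted p = 0.64). Ripk2, its kinase, was at 31.1, 35.5 and 50.8 CPM in water and 21.5, 21.5 and 23.3 CPM with MDP, lower in every MDP library (log2 fold change -0.83, SE 0.19, adjusted p = 0.048). Slc15a2, which encodes a peptide transporter of the plasma membrane, fell from 5.48, 5.61 and 6.3 to 1.73, 2.51 and 1.49 CPM (log2 fold change -1.59, SE 0.26, adjusted p = 0.015). Of 30 tested genes of muramyl peptide sensing and its downstream kinases, 4 rose and 2 fell, with a median log2 fold change of -4.6e-05. The 4 were genes of the ubiquitin and IKK steps. Birc2, a ubiquitin ligase of the RIPK2 complex, went from 24.1, 23.3 and 25.3 to 60.2, 73.8 and 64.7 CPM (log2 1.45), its paralogue Birc3 rose by log2 0.97, Ikbkb, the kinase IKK-beta, by 0.54, and Rnf31, the catalytic part of the linear ubiquitin ligase, by 0.45. Without water replicate 3, 9 genes rose and 7 fell, and Nod2 still did not pass (log2 0.02). Of all tested genes, 5.13% rose and 4.02% fell with 6 libraries, and 18.1% and 19.5% without water replicate 3.

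Tlr4, the receptor for lipopolysaccharide, was at 149, 143 and 219.7 CPM in water and 124, 113 and 126 CPM with MDP, lower in each MDP library but not past the threshold (log2 fold change -0.49, SE 0.18, adjusted p = 0.14), and without water replicate 3 its log2 fold change was -0.27, adjusted p = 0.0019. Of 15 genes of the TLR4 complex and its adaptors, 1 rose, the IKK-related kinase gene Ikbke, which acts upstream of interferon genes, from 33.8, 30.5 and 14.1 to 90.9, 91.7 and 87.9 CPM (log2 1.79), while 6 rose and 2 fell without water replicate 3. The shares of all tested genes were 5.13% and 4.02% with 6 libraries, and 18.1% and 19.5% without water replicate 3. Of 26 other pattern receptor genes, 3 rose and 2 fell, and 13 rose and 6 fell without water replicate 3. Those that rose were the DNA sensor gene Ifi204 (log2 1.67), the pyrin gene Mefv (1.15) and Clec4e, the Mincle receptor for mycobacterial glycolipid (1.13). The inflammasome sensor gene Nlrp3 fell from 70.6, 62.3 and 58.4 to 42.7, 47.9 and 43.1 CPM (log2 -0.52), and Clec4n, the Dectin-2 receptor for fungal mannan, fell as well (log2 -0.80).

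Of 25 tested NF-kB targets and regulators, 11 rose and 0 fell, with a median log2 fold change of 0.57 (19 rose and 0 fell without water replicate 3, median 0.86). Relb, a subunit of the alternative NF-kB pathway, was at 44.3, 46.3 and 26.5 CPM in water and 153, 173 and 150.4 CPM with MDP. The MDP libraries lay well above all water libraries, replicate 3 being the lowest of these (log2 fold change 2.02, SE 0.22, adjusted p = 0.0051). Nfkb2, its partner, rose from 91.1, 90.9 and 75.5 to 203, 230.3 and 196 CPM (log2 1.29, SE 0.12), and Rel, the c-Rel subunit, rose by log2 1.18. Inhibitors that NF-kB switches on rose too: Tnfaip3, the deubiquitinase A20, went from 50.2, 49.99 and 46.6 to 95.2, 109.99 and 101 CPM (log2 1.06, SE 0.095), and Nfkbia, the inhibitor I-kappa-B-alpha, rose by log2 0.66. The costimulatory and activation markers Cd40 (log2 1.78) and Cd83 (1.97), the signal adaptor gene Traf1 (1.67) and Marcksl1, a membrane and actin-binding protein (2.05), were higher too, as were Birc3 and the nuclear regulator gene Nfkbiz (log2 1.04).

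Promoters of 2 members of this list and of Il6, a cytokine gene described next, are shown because 10 of the 20 NF-kB list members with a promoter window in the RefSeq table held an NF-kB consensus. Windows ran from 250 bases before to 50 bases after the start of a gene (GRCm38.p6, RefSeq), and the consensus was searched on both strands, overlapping matches included. It was in 12 of 24 windows of the list (50%) and in 2779 of 32851 windows of all genes (8.46%). Of 23 tested cytokine and chemokine genes with a window, 9 held it, Il6 among them. Il12b and Il1b, also described next, did not hold the consensus. Among genes that rose with MDP, 86 of 662 windows held it (13%), among genes that fell 73 of 579 (12.6%), and among genes that did not pass 1190 of 11763 (10.1%). A match gives letters only, and no window was tested for binding. The windows of Nfkb2 (chr19:46304487-46304786, plus strand), Tnfaip3 (chr10:19015361-19015660, minus strand) and Il6 (chr5:30012864-30013163, plus strand) follow 5′ to 3′, with the matches in capitals. Nfkb2 has 3 windows in the table, all with a match, and Tnfaip3 has 2, of which the other holds none, so the window shown is 1 of several.
Nfkb2: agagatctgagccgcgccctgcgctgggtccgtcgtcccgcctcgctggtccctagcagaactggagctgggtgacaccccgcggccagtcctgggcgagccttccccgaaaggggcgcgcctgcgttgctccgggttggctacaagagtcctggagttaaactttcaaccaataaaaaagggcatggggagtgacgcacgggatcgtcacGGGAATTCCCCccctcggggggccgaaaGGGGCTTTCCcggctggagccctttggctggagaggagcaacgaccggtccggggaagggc
Tnfaip3: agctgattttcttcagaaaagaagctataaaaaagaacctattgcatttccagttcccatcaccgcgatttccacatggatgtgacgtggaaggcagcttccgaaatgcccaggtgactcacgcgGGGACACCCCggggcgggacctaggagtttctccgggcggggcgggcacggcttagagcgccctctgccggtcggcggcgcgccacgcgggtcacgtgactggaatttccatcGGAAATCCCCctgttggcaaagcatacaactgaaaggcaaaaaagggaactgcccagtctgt
Il6: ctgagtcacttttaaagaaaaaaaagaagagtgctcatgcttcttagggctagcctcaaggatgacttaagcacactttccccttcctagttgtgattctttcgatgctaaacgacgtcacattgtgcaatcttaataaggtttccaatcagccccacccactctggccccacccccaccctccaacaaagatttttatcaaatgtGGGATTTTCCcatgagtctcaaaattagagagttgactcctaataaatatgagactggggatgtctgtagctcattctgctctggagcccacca

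Among the cytokine genes, a few rose far and most did not pass. Il12b, the p40 subunit that interleukins 12 and 23 share (ENSMUSG00000004296, GRCm39 chromosome 11, 44290890 to 44304860), was at 3.34, 5.32 and 0.53 CPM in water replicates 1, 2 and 3 and 109, 128 and 119 CPM in the MDP replicates. Every MDP library was far above the highest water library, and the lowest water value was that of replicate 3 (log2 fold change 5.28, SE 0.65, adjusted p = 0.0073, and 4.8, adjusted p = 5.9e-11 without water replicate 3). Ccl5, a chemokine for T cells and monocytes (ENSMUSG00000035042, GRCm39 chromosome 11, 83416604 to 83421344), was at 32.1, 36.1 and 26.2 CPM in water and 376, 391 and 393 CPM with MDP. The 3 water values lay close together, and so did the 3 MDP values (log2 fold change 3.62, SE 0.14, adjusted p = 0.0006). Per gene length, Ccl5 was the higher of these genes, with means of 33.9 FPKM in water and 417 FPKM with MDP (the authors' values, per gene length and library size), against 1.62 and 62.4 FPKM for Il12b.

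Il6, the acute-phase cytokine, was at 0.533, 0.643 and 0.9 CPM in water and 4.57, 6.27 and 3.98 CPM with MDP (log2 fold change 2.83, SE 0.32, adjusted p = 0.0061). Il1b, interleukin-1 beta, was at 6.83, 5.38 and 11.6 and 41.2, 46.4 and 35.4 CPM (log2 fold change 2.37, SE 0.29, adjusted p = 0.0074). For both, every MDP library lay above every water library. Per gene length, means with MDP were 2.10 FPKM for Il6 and 22.2 FPKM for Il1b. Cxcl16, which attracts T cells that carry CXCR6, rose from 99, 98 and 75.8 to 304, 312 and 316 CPM (log2 1.77), Cxcl14 by log2 2.14, the interleukin-6 family cytokine Lif by 1.09 and Ccl22, a ligand of CCR4, by 0.89. Ccl8, a monocyte chemokine, fell from 1.7, 1.58 and 1.38 to 0.158, 0.401 and 0.435 CPM (log2 -2.22). Of 33 tested cytokine and chemokine genes these 8 rose and this 1 fell, and the median log2 fold change was 0.049.

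Several early inflammatory genes did not pass. Tnf, tumour necrosis factor, was at 17.8, 18.3 and 11.2 CPM in water and 17.3, 15.5 and 15.8 CPM with MDP, with overlapping groups (log2 fold change 0.041, SE 0.21, adjusted p = 0.92, 95% interval -0.45 to 0.53). The monocyte chemokine Ccl2 was at 428, 420.4 and 159 CPM in water and 266, 273 and 214 CPM with MDP, and Ccl3 at 162, 150.2 and 86.7 and 94.6, 94.2 and 90.9 CPM. Neither passed with the 6 libraries (adjusted p = 0.5 and 0.21), and both were lower without water replicate 3 (log2 -0.76 and -0.74). The value of the neutrophil chemokine Cxcl3 depended on water replicate 3: it was at 2.71, 10.6 and 288 CPM in water and 32.7, 41.3 and 30.3 CPM with MDP, with a log2 fold change of -1.53 with that library and 2.44 without it, and passed in neither. The cytokine list had 15 genes higher and 9 lower without water replicate 3.

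**Figure D3:**
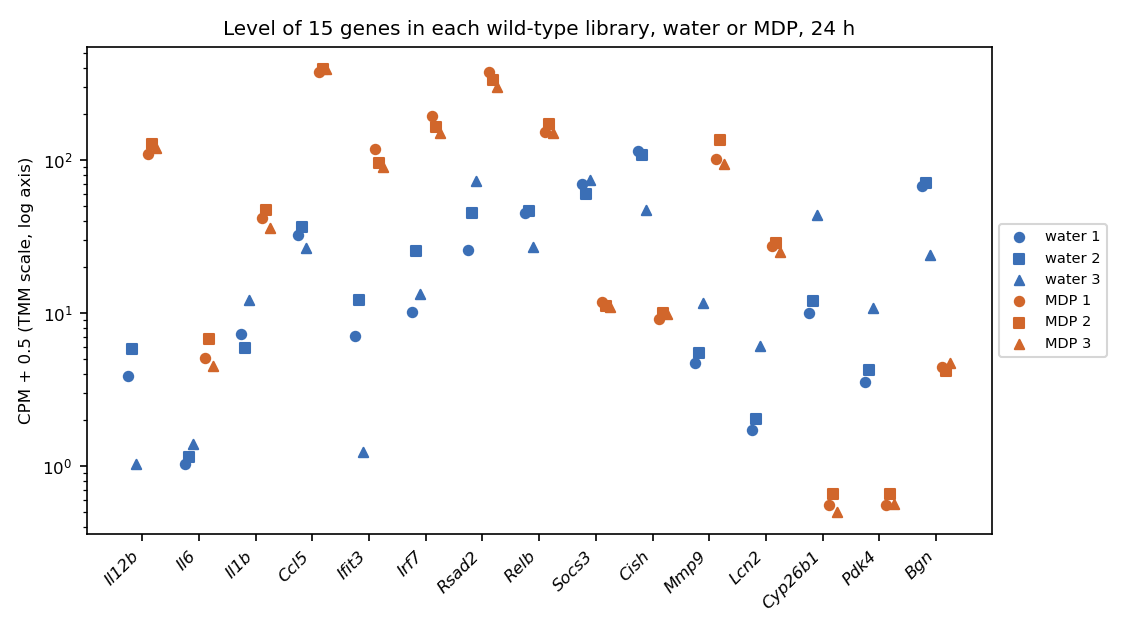
Level of 15 genes in each wild-type library (y axis: CPM + 0.5 on a log axis; blue, water; orange, MDP; circle, square and triangle, replicates 1, 2 and 3). The 15 genes were picked from those that passed in these libraries, and for each of them the MDP libraries do not overlap the water libraries. Over all tested genes the MDP libraries lie above all water libraries for 19.7% and below them for 18.8%.

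Of the gene lists, that of interferon-stimulated genes held the most genes that rose. Of 54 tested, 39 rose and 1 fell, with a median log2 fold change of 1.65, and all MDP libraries lay above all water libraries for 52 of them, against 19.7% of all tested genes. The counts without water replicate 3 were 53 and 1, with a median of 1.34. Ifit3, an antiviral effector (ENSMUSG00000074896, GRCm39 chromosome 19, 34560931 to 34566131), was at 6.54, 11.7 and 0.742 CPM in water and 117, 95.6 and 89.5 CPM with MDP. The water libraries differed widely among themselves, replicate 3 being the lowest, yet the highest stayed far below the lowest MDP library (log2 fold change 4.0, SE 0.78, adjusted p = 0.028, and log2 3.49, adjusted p = 0.0023 without water replicate 3). Irf7, the transcription factor that amplifies interferon production (ENSMUSG00000025498, GRCm39 chromosome 7, 140842619 to 140846394), was at 9.69, 25.1 and 12.9 CPM in water and 193, 164 and 150.2 CPM with MDP (log2 fold change 3.42, SE 0.37, adjusted p = 0.0048). Rsad2, the antiviral enzyme viperin, rose from 25.2, 44.8 and 72.4 to 379, 336 and 302 CPM (log2 2.84), and here water replicate 3 was the highest of the water libraries.

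Members of the group differed in size of change more than in direction. Ifit2 rose by log2 3.64, Ifit1 by 3.28, the nucleotide kinase gene Cmpk2 by 3.18, Oasl1 by 2.86 and the ubiquitin-like modifier gene Isg15 by 2.7, while Ly6e rose by 0.62 and the RNA-editing gene Adar by 0.72. Usp18, which removes ISG15 and restrains the interferon receptor, went from 32.9, 46 and 34 to 161, 144 and 147 CPM (log2 2.0, SE 0.15). The gene that fell was Ifi27, from 58.2, 54 and 64.6 to 33.9, 38.8 and 38.6 CPM (log2 -0.67). Ifnb1, the gene of interferon beta itself, was too low to test: it had 0, 0 and 0 reads in the water libraries and 6, 4 and 7 reads in the MDP libraries. Near-identical copies, such as Ifit3 and Ifit3b, Oas1a and Oas1g, and members of the Gbp, Irgm and H2 families, may share reads, so their separate values are uncertain.

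The promoters of 3 of these genes are shown for the ISRE core, GAAANNGAAA, read on either strand with overlaps counted. Each of the 3 held it. Of the 40 tested list members with a window, 22 held it, and Irf7, Ifit2, Cmpk2 and Oasl1 were among those that did not. The core was in 24 of 50 windows of the interferon list (48%), which cover 40 of its 54 tested members, and in 1131 of 32851 windows of all genes (3.44%). By call, it was in 57 of 662 windows of genes that rose with MDP (8.61%), 9 of 579 windows of genes that fell (1.55%) and 369 of 11763 windows of genes that did not pass (3.14%). The windows follow 5′ to 3′ with the core in capitals, for Ifit3 (chr19:34583279-34583578, plus strand), Isg15 (chr4:156200769-156201068, minus strand) and Rsad2 (chr12:26456403-26456702, minus strand). Counted from the start of the gene, the matches began at bases -156 and -122 in Ifit3, at -78, -72 and -66 in Isg15, where they overlap, and at -120 in Rsad2.
Ifit3: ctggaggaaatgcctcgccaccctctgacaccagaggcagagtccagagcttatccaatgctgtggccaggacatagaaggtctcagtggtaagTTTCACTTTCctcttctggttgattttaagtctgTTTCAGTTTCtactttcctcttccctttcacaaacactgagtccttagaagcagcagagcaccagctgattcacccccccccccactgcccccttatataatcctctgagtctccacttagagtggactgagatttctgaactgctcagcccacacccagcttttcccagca
Isg15: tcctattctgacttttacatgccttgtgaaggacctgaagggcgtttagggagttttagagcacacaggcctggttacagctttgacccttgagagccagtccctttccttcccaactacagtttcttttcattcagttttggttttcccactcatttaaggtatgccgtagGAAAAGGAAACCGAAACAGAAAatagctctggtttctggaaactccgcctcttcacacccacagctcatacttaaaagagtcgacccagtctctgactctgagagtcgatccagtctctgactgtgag
Rsad2: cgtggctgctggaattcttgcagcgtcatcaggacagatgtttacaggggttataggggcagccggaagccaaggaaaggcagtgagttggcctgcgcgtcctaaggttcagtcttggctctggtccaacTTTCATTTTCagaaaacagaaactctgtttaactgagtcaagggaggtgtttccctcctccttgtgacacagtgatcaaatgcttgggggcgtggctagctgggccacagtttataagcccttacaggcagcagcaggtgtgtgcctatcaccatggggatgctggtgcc

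Of 15 tested interferon signalling genes, 2 rose and 2 fell (6 and 2 without water replicate 3). Irf1 and Irf8, transcription factors of the interferon gamma and myeloid programs, rose from 46.4, 45.2 and 32.4 to 131, 141 and 122 CPM (log2 1.67) and from 129.8, 136 and 106 to 407, 372 and 391 CPM (1.65). Genes of the receptors and kinases, among them Ifnar1, Ifnar2, Jak1 and Tyk2, did not pass. Of 16 tested guanylate-binding and immunity-related GTPase genes, which attack vacuoles of pathogens, 3 rose and 0 fell: Irgm1 (log2 1.68), Gbp6 (1.79) and Igtp (1.13). All 16 were lower in water replicate 3 than in the other water libraries, and without it 10 rose and 2 fell.

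The 2 interferon signalling genes that fell were Socs1 and Socs3, suppressors of cytokine signalling, and the related gene Cish fell too. Socs3, which blocks the gp130 and G-CSF receptors (ENSMUSG00000053113, GRCm39 chromosome 11, 117856905 to 117860873), was at 68.8, 59.9 and 73.7 CPM in water and 11.2, 10.6 and 10.5 CPM with MDP. All water libraries, replicate 3 included, were far above every MDP library (log2 fold change -2.64, SE 0.12, adjusted p = 0.0008). Socs1, which blocks JAK kinases at the interferon receptors, fell from 33.2, 31 and 37.3 to 12.2, 13.2 and 11.8 CPM (log2 fold change -1.45, SE 0.12, adjusted p = 0.0025). Cish, the STAT5-induced suppressor (ENSMUSG00000032578, GRCm39 chromosome 9, 107173225 to 107179983), fell from 115, 107 and 46.9 to 8.66, 9.52 and 9.39 CPM (log2 fold change -3.28, SE 0.35, adjusted p = 0.0048), with replicate 3 lowest in water but still well above the MDP libraries. Other genes of the family, looked at after these values were seen, did not pass with 6 libraries: Socs2 was at 64.3, 59.1 and 22.5 CPM in water and 59.5, 62.6 and 60.7 CPM with MDP (log2 0.33, adjusted p = 0.6), and Socs4, Socs5, Socs6 and Socs7 had log2 fold changes of 0.08, -0.26, 0.012 and -0.30. Of these 5, Socs5 was lower without water replicate 3 (log2 -0.39, adjusted p = 0.0076). The Cish promoter window (chr9:107296409-107296708, plus strand) was looked at after these values were seen and is shown for its pair of STAT palindromes, TTCNNNGAA, in capitals at bases 1 and 12 from the start of the gene. That motif was in 2726 of 32851 windows (8.3%).
Cish: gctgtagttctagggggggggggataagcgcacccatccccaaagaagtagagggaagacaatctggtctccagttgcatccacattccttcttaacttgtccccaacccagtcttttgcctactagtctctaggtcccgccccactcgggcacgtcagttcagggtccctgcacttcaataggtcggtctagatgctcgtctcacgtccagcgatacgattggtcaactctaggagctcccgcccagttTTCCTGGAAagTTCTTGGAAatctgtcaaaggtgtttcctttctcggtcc

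The antigen presentation genes that rose were of class I: Tapbp, the peptide-loading chaperone tapasin, Tap1, the peptide transporter, and the class I heavy chain H2-K1, by log2 0.77, 1.01 and 0.60. Tapbp went from 399, 444 and 406 to 718, 678 and 730.00 CPM without overlap. Class II genes and their activator Ciita did not pass with 6 libraries and were low in water replicate 3: Ciita was at 152, 130.1 and 4.13 CPM in water and 79.3, 98.1 and 87 CPM with MDP. Without that library Ciita and H2-Ab1 were lower with MDP (log2 -0.68 and -1.28). Cd80, a costimulatory ligand for T cells, fell from 53.3, 47.9 and 63.5 to 33.1, 38 and 35.4 CPM (log2 -0.63). In all, 3 of 22 rose and 1 fell, against 5.13% and 4.02% of all tested genes. Without water replicate 3, 9 rose and 10 fell, against 18.1% and 19.5%.

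Of 26 antimicrobial effector genes 5 rose and 0 fell, and 16 rose and 1 fell without water replicate 3. Lcn2, lipocalin 2, which withholds iron from bacteria, was at 1.21, 1.52 and 5.61 CPM in water and 27, 28.4 and 24.4 CPM with MDP (log2 fold change 3.25, SE 0.57, adjusted p = 0.02, and log2 4.29 without water replicate 3). Ccrl2, a receptor that presents the chemoattractant chemerin, rose from 10.7, 14.8 and 19.3 to 53.9, 51.5 and 59.6 CPM (log2 1.88), the vanin gene Vnn3 by log2 1.93, the acute-phase gene Saa3 by 0.72 and the NADPH oxidase subunit gene Ncf4 by 0.70. Acod1, which makes itaconate, was at 35.4, 36.5 and 133 CPM in water and 293, 279.9 and 297 CPM with MDP. Its groups did not overlap, with water replicate 3 the highest of the water libraries, and it did not pass with 6 libraries (log2 2.08, adjusted p = 0.062) but passed without replicate 3 (log2 3.01, adjusted p = 1.1e-15). Nos2, inducible nitric oxide synthase, was at 2.52, 2.34 and 0.318 CPM in water and 5.15, 3.21 and 4.29 CPM with MDP, short of the threshold with 6 libraries (log2 1.28, adjusted p = 0.26) and past it without water replicate 3 (log2 0.79, adjusted p = 0.026).

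Of 18 matrix protease and inhibitor genes, 4 rose and 3 fell (5 and 8 without water replicate 3). The shares of all tested genes were 5.13% and 4.02% (18.1% and 19.5% without water replicate 3). Mmp9, the gelatinase B (ENSMUSG00000017737, GRCm39 chromosome 2, 164782700 to 164797770), was at 4.22, 4.97 and 11.1 CPM in water and 102, 136 and 93.7 CPM with MDP, and every MDP library was far above the highest water library (log2 fold change 4.03, SE 0.41, adjusted p = 0.0042). Mmp25, a membrane-bound metalloprotease, rose from 40.1, 38.5 and 7.84 to 229, 246 and 245 CPM (log2 3.06), Mmp2, gelatinase A, by log2 1.09 and the plasminogen activator inhibitor Serpinb2 by 1.24. Plau, the urokinase, and Plaur, its receptor, fell (log2 -0.89 and -1.35). Mmp12, the macrophage elastase, fell from 13885, 14106 and 12911 to 9055, 8153 and 8506 CPM (log2 -0.67). Of 18 chemoattractant receptor genes, 3 rose and 1 fell (11 and 4 without water replicate 3). Ccr7, which guides cells to lymph nodes, was at 129.8, 118 and 60.7 CPM in water and 644, 714 and 698 CPM with MDP (log2 fold change 2.73, SE 0.29, adjusted p = 0.0047). C5ar1, the complement C5a receptor, rose from 82.6, 94.8 and 103 to 254, 273 and 261 CPM (log2 1.49) and the sphingosine phosphate receptor gene S1pr1 by 1.5, while Ltb4r1, a leukotriene B4 receptor, fell (log2 -1.17).

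Of 22 alternative activation genes 3 rose and 3 fell, and 8 rose and 11 fell without water replicate 3. The shares of all tested genes were 5.13% and 4.02%, and 18.1% and 19.5% without water replicate 3. Retnla, the secreted protein FIZZ1 (ENSMUSG00000061100, GRCm39 chromosome 16, 48662914 to 48664824), had 0, 3 and 0 reads in water and 98, 235 and 115 with MDP. Scaled to library size that is 154-fold (95% exact interval 52.2 to 747, counting error only), and Retnla rose at adjusted p = 0.0065. Arg1, arginase 1, was at 0.0485, 0 and 0.424 CPM in water and 2.26, 2.16 and 1.8 CPM with MDP (log2 3.65, adjusted p = 0.044, and log2 5.97 without water replicate 3), from 9 reads in the water libraries together. Mrc1 fell from 732, 749.5 and 460.4 to 349, 289 and 303 CPM (log2 fold change -1.04, SE 0.20, adjusted p = 0.028) and the integrin gene Itgax, CD11c, from 1357, 1326 and 1086 to 591, 549.7 and 531 CPM (log2 -1.17). The cytokine signalling suppressor gene Cish, given above, was the third that fell, and Ccl22 the third that rose. Mgl2 and Clec10a, lectins of the same activation state, did not pass with 6 libraries. Mgl2 was at 319.7, 329.5 and 94.8 CPM in water and 69.8, 71.6 and 73.7 CPM with MDP, without overlap (adjusted p = 0.056), and Clec10a at 45.7, 39.5 and 5.51 and 6.3, 6.62 and 5.72 CPM, where replicate 3 lay below all MDP libraries. Without that library both were lower with MDP (log2 -2.18 and -2.77). Of 22 growth factor and repair genes, 8 rose and 8 fell without water replicate 3, and 0 rose and 2 fell with it: the EGF receptor ligand gene Hbegf, from 16.9, 18.3 and 22.3 to 9.61, 8.02 and 7.15 CPM (log2 -1.21), and Gas6, the bridging ligand for uptake of dead cells (log2 -1.2).

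Of 24 tested cholesterol synthesis genes, 4 rose and 0 fell, with a median log2 fold change of 0.64, and all but 1 had a positive fold change. Pmvk, phosphomevalonate kinase, rose from 12.9, 12.7 and 10.3 to 40.5, 43.7 and 34.8 CPM (log2 1.73, SE 0.14), Sc5d by 1.02, Fdft1, squalene synthase, by 0.91, and Lss, which closes the sterol rings, by 0.70. The counts without water replicate 3 were 16 and 1, with a median of 0.46. Of 11 genes of sterol efflux and its receptor LXR, 1 rose and 1 fell (4 and 3 without that library): the sterol transporter gene Abcg1 fell (log2 -0.83) and the phospholipid transfer protein gene Pltp rose (1.8). Of 15 fatty acid synthesis genes 0 rose and 1 fell (4 and 4 without water replicate 3): Me1, malic enzyme, fell from 9.35, 12.3 and 31.5 to 3.68, 3.96 and 3.79 CPM (log2 -2.21, and -1.5 without that library). With 6 libraries 5.13% of all tested genes rose and 4.02% fell, and without water replicate 3 these shares were 18.1% and 19.5%.

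In glycolysis, Pfkfb3, which makes the activator of phosphofructokinase, rose from 88.8, 94.3 and 76.7 to 285, 314 and 291 CPM (log2 fold change 1.78, SE 0.11, adjusted p = 0.0017), while the phosphofructokinase gene Pfkp and the stress gene Ndrg1 fell (log2 -0.83 and -1.17). The other 21 genes of that list did not pass with 6 libraries (8 rose and 4 fell in all without water replicate 3), and 20 of its 24 members were highest among the water libraries in replicate 3. Of 48 respiratory chain genes, 0 rose and 2 fell, Ndufb2 (log2 -0.96) and Ndufb6 (-0.63). Changes in that list were small and mostly in the same direction: 43 had a negative fold change, the median was -0.24, and without water replicate 3, 24 fell and 0 rose, with a median of -0.18. Among cell cycle genes 0 of 39 passed, although all 39 had a positive fold change (median 0.71). Mki67, a marker of dividing cells, was at 94.6, 84.2 and 39.5 CPM in water and 105, 118 and 128 CPM with MDP, so that water replicate 3 alone was far lower. Without it 24 of 39 rose, with a median of 0.33. NRF2 targets had a median of -0.84 with water replicate 3 and -0.036 without it, and 0 of 22 passed with the 6 libraries, while 6 rose and 7 fell without it. Hmox1, heme oxygenase 1, was at 531, 648 and 1773 CPM in water and 631, 574 and 616 CPM with MDP (log2 -0.70, and 0.041 without water replicate 3).

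Of all the gene lists, that of stromal genes held the most genes that fell. Such genes of fibroblast-like cells, which can survive beside macrophages in marrow cultures, were listed by name, and 58 of 80 were tested. Of these, 41 fell and 0 rose, with a median log2 fold change of -3.12 (52 fell and 2 rose without water replicate 3, median -3.50). Bgn, the matrix proteoglycan biglycan (ENSMUSG00000031375, GRCm39 chromosome X, 72527208 to 72539539), was at 67.3, 69.9 and 23.4 CPM in water and 3.94, 3.66 and 4.23 CPM with MDP, a fall in every MDP library (log2 fold change -3.76, SE 0.44, adjusted p = 0.0067). Cxcl12, the stromal chemokine that holds blood-forming cells in the marrow, fell from 39, 37.2 and 4.13 to 0.525, 0.451 and 0.87 CPM (log2 -5.45). Sfrp1, a secreted Wnt inhibitor, had 269, 234 and 16 reads in water and 0, 0 and 3 with MDP, a ratio of 168 of water over MDP (95% exact interval 57.3 to 819, counting error only). Thbs2, Myl9 and Col6a1 fell too (log2 -4.77, -4.48 and -4.13).

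In these bulk samples fewer stromal cells and less RNA per stromal cell cannot be told apart. Stromal genes took 0.151%, 0.139% and 0.0441% of the counts in water replicates 1, 2 and 3, and 0.0218%, 0.0189% and 0.0241% with MDP, so that water replicate 3 lay between the groups. The summed level of the 10 tested stromal markers was 407, 374 and 122 CPM in water and 45.4, 34.1 and 53.1 CPM with MDP. The collagen gene Col3a1 was at 40.7, 34 and 1.38 CPM in water and 2.42, 1.4 and 1.93 CPM with MDP, with replicate 3 below all MDP libraries, and Col1a1 at 45.1, 35.8 and 4.87 and 4.99, 2.81 and 2.8 CPM. Neither passed with 6 libraries (adjusted p = 0.085 and 0.064), and both passed without replicate 3 (log2 -4.29 and -3.51). In contrast Fstl1, Postn, Pdgfrb, Dcn and Serpinf1 passed both ways, with log2 fold changes of -2.15 to -4.05.

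To separate stromal from other genes, a gene was put with the stromal genes if it was on the list or if its log2 CPM followed the stromal marker level within groups (r of at least 0.8) over the 12 libraries outside the comparison. Of the tested genes, 57 met the second condition, and 2 of them were on the list. Together 113 tested genes were put with the stromal genes, of which 43 fell and 3 rose. That left 728 other genes that rose and 530 that fell. For genes that fell, the separation was nearly that of the list, which held 41 of the 43. Only 2 of the 58 tested list members met the second condition. A gene that met that condition alone is therefore not shown to be stromal. Stromal genes not on the list may remain among the 530. Of those, 81 were too low to be tested in the knockout libraries.

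Among genes outside the lists that met the rule for naming, the largest falls were mixed in kind. Cyp26b1, an enzyme that degrades retinoic acid (ENSMUSG00000063415, GRCm39 chromosome 6, 84548396 to 84570890), was at 9.55, 11.5 and 43.5 CPM in water and 0.0525, 0.15 and 0 CPM with MDP, with 1214 reads in the water libraries together and 4 in the MDP libraries (log2 fold change -8.09, SE 1.04, adjusted p = 0.0081, and log2 -7.05 without water replicate 3). Pdk4, the kinase that switches off pyruvate dehydrogenase, fell from 3.05, 3.74 and 10.3 to 0.0525, 0.15 and 0.0622 CPM (log2 fold change -5.88, SE 0.75, adjusted p = 0.0081, and log2 -5.13 without water replicate 3). Both were highest in water replicate 3, as was Ednrb, the endothelin receptor type B, which fell from 8.43, 12.4 and 66.8 to 1.73, 1.91 and 2.74 CPM (log2 -3.79, and -2.3 without that library). The other 7, Serping1, Svep1, Dclk1, Syt13, Ddr2, Ehd2 and Ltbp2, were, among the water libraries, lowest in replicate 3. Their r with the stromal marker level over the 12 other libraries ran from -0.43 (Ehd2) to 0.60 (Dclk1), under 0.8 for each. The stromal list genes Sfrp1, Cxcl12, Thbs2, Myl9 and Col6a1 also had low r, from -0.41 (Thbs2) to 0.41 (Cxcl12). A low r therefore does not set a gene apart from stromal genes. Which cells the other 7 genes came from was not tested. Ltbp2, a matrix protein, was at 47.7, 45.8 and 8.16 CPM in water and 2.05, 1.75 and 3.48 CPM with MDP, and Ddr2, a collagen receptor, at 8.96, 8.07 and 4.82 and 0.315, 0.301 and 0.373 CPM. Serping1, the complement C1 inhibitor, fell as well (log2 -4.83). Counted over all 573 genes that fell, 78 were at least 2-fold lower in water replicate 3 than in replicates 1 and 2, 19 at least 2-fold higher and 476 within 2-fold. This split was chosen after the values were seen.

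Among genes outside the lists that met the rule for naming, those that rose most were of several kinds. Rnaset2a, a lysosomal ribonuclease, was at 1.41, 1.87 and 1.69 CPM in water and 39.7, 44.5 and 47.2 CPM with MDP, with a small spread in both groups (log2 fold change 4.72, SE 0.16, adjusted p = 0.00039). It has a near-identical copy, Rnaset2b, so the split of reads between these copies is uncertain. Itgb8, an integrin that activates latent TGF-beta, rose from 0.339, 0.351 and 0.212 to 4.57, 5.61 and 7.77 CPM (log2 4.28), Wnt11, a secreted Wnt ligand, from 1.11, 2.28 and 0.636 to 19.7, 21.6 and 15.3 CPM (log2 3.82), and Oprd1, the delta opioid receptor, by log2 4.51. Ramp3, which modifies the receptors for adrenomedullin, was at 4.36, 5.09 and 8.95 CPM in water and 80.3, 71.1 and 75.7 CPM with MDP, without overlap (log2 3.62). Synpo2, an actin-binding protein, rose by log2 4.06, and Spata31d1b, Bcl2l14, Heatr9 and the secreted protein gene Scube1 rose by 4.5, 3.73, 3.71 and 3.66.

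Markers of other blood cells were checked for cells that might come with the macrophages. Of 14 neutrophil genes 8 were tested. With 6 libraries 3 rose and 0 fell (median log2 fold change 1.48), and without water replicate 3, 7 rose and 0 fell (median 2.48). Padi4, which citrullinates histones, went from 3.34, 4.21 and 6.25 to 19, 21.9 and 21.3 CPM (log2 fold change 2.17, SE 0.25, adjusted p = 0.006), and the granule genes Ltf and Ngp rose by log2 2.93 and 2.76 (3.57 for Ngp without water replicate 3). S100a8 was at 3.88, 4.62 and 34.5 CPM in water and 29.2, 21.8 and 20.6 CPM with MDP and did not pass (log2 0.74, adjusted p = 0.6), water replicate 3 being the highest library, and passed without it (log2 2.5, adjusted p = 1.7e-08). The summed level of the 8 genes was 1521, 1614 and 2295 CPM in water and 1916, 1798 and 1863 CPM with MDP, nearly all of it Mmp8. The defining markers Ly6g, Mpo, Elane, Prtn3, Camp and Retnlg were too low to test. In the knockout comparison 0 of the 8 tested genes passed, where 10.4% of all tested genes rose and 10.5% fell. Of 8 dendritic cell markers, 2 rose and 2 fell (5 and 3 without water replicate 3): Flt3 and Ccr7 rose (log2 2.74 and 2.73), and Clec9a and Itgax fell (-0.97 and -1.17). Of the osteoclast markers Acp5, the tartrate-resistant acid phosphatase, rose from 58.5, 72.4 and 67.7 to 283, 245 and 280.2 CPM (log2 2.02), the 1 of 6 tested that passed (1 rose and 4 fell without water replicate 3). Plac8, the 1 of 11 tested monocyte genes that passed, rose by log2 2.37 (6 rose and 3 fell without that library). B cell markers were represented by Ebf1, which marrow stromal cells also express and which fell (log2 -3.8). No T or NK cell, erythroid or adipocyte marker was high enough to test. The part of other cells in these changes was not tested.

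**Figure D4:**
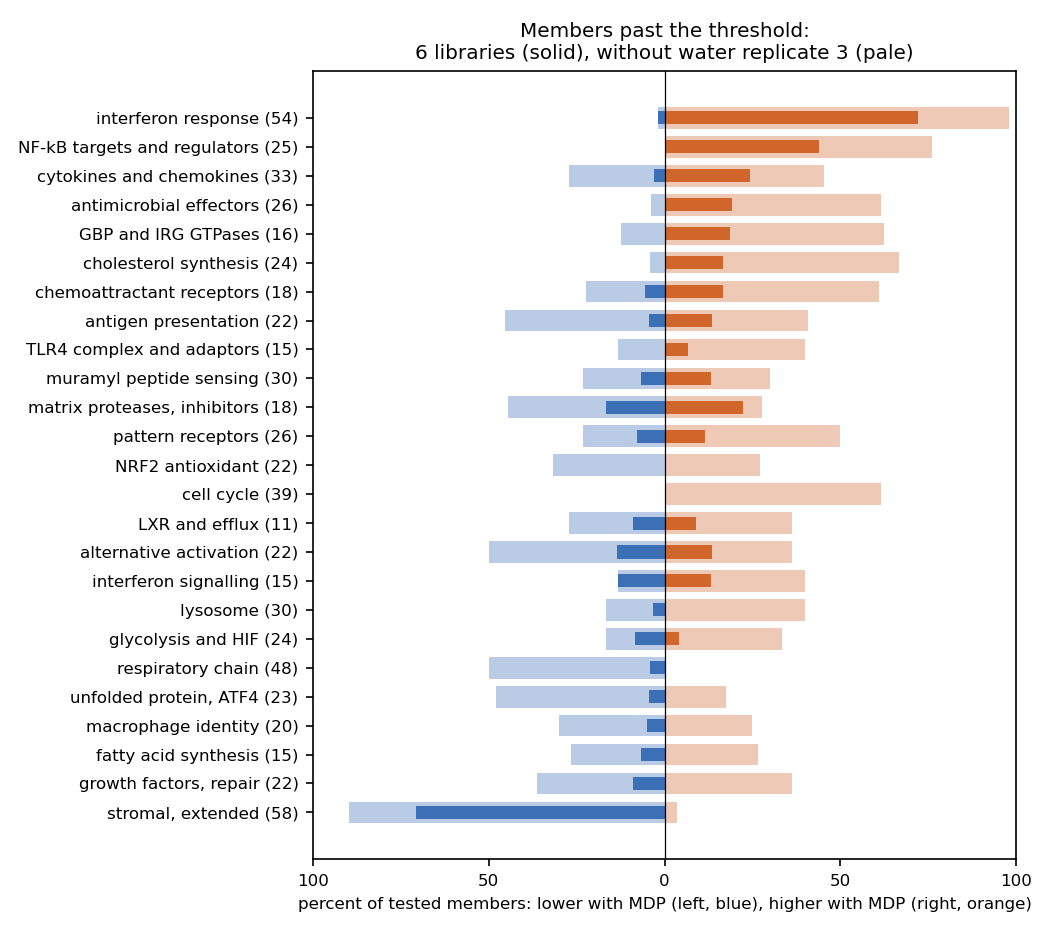
Share of the tested members of each gene list that were higher (orange, right) or lower (blue, left) with MDP in wild type; solid bars, all 6 libraries; pale bars, without water replicate 3; number of tested members in parentheses. Interferon response genes (39 of 54 higher) and stromal genes (41 of 58 lower) stand at the ends of the order.

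The last comparison asked how far the wild-type response was also seen without TLR4, in 6 libraries that the wild-type comparison did not use. In the knockout, Tlr4 was at 54.4, 55.2 and 48.4 CPM in water and 50.6, 51 and 51.8 CPM with MDP, below every wild-type library (CPM scaled separately in the 2 genotypes, and the deleted stretch of the gene is not given). MDP raised 1475 genes there (10.4% of 14158 tested) and lowered 1480 (10.5%), with a biological coefficient of variation of 6.09%. Of the 731 genes that rose in wild type, 692 were tested in knockout: 334 rose and 35 fell. Of the 573 that fell in wild type, 472 were tested: 127 fell and 46 rose. The difference between the 2 responses passed for 1237 of 15013 genes (8.24%). Among the genes that rose in wild type, 424 had a higher response there than in knockout (586 without water replicate 3), and among those that fell, 305 had a lower one (456). These genes were picked by their response in the same wild-type libraries, so both counts lean toward a larger wild-type change. Over all 15013 genes the response was higher in wild type for 719 and lower for 518.

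**Figure D5:**
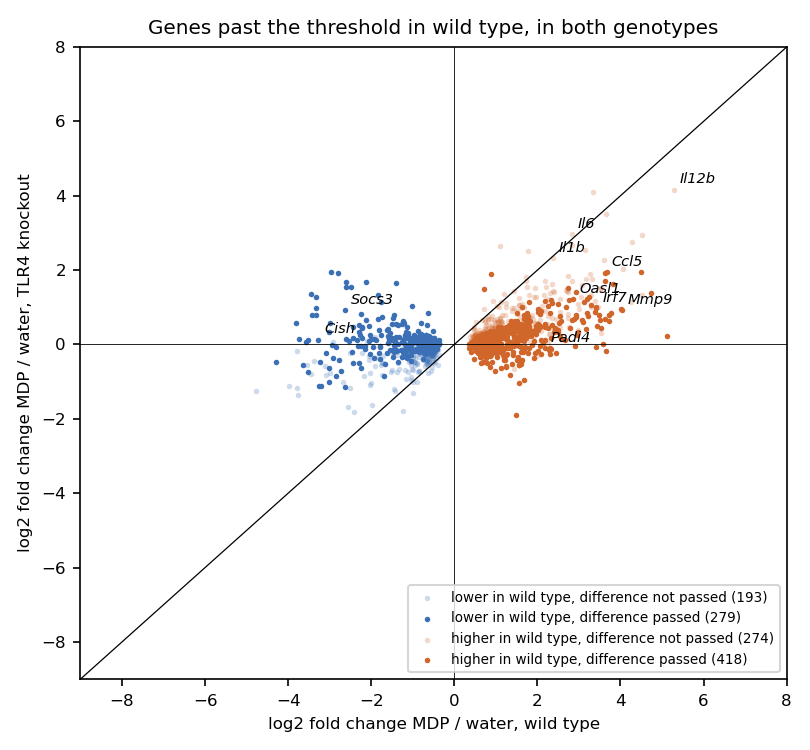
log2 fold change of MDP against water in wild type (x axis) and in TLR4 knockout (y axis) for genes past the threshold in wild type and tested in both; orange, higher in wild type; blue, lower in wild type; full colour, genes whose response differed between genotypes; the diagonal marks equal responses. Il6 and Il1b lie near the diagonal, Irf7 and Mmp9 below it, and Socs3 on the opposite side of 0 in knockout.

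Il12b, Il6 and Il1b rose in both genotypes. Il12b had a log2 fold change of 5.28 in wild type and 4.16 in knockout (difference 1.13, SE 0.59, adjusted p = 0.26), Il6 2.83 and 2.96 (difference -0.12, SE 0.36, adjusted p = 0.87), and Il1b 2.37 and 2.33 (difference 0.041, SE 0.29, adjusted p = 0.95). The levels stood apart, though they were scaled separately and not tested: Il1b was at 7.94 ± 3.25 CPM in wild-type water (mean ± SD, n = 3) and 41 ± 5.5 CPM with MDP, and at 80.9 ± 2.88 and 406 ± 48.9 CPM in knockout. Nos2 rose in knockout (log2 1.99), and its difference between genotypes did not pass with all libraries (adjusted p = 0.47) and passed without water replicate 3 (log2 -1.20, adjusted p = 0.00057). Tnf and Cxcl10 likewise had no difference past the threshold with all libraries and one past it without water replicate 3 (log2 -0.44, adjusted p = 0.030, for Tnf and 1.03, adjusted p = 0.0058, for Cxcl10). Ccl5 rose in both and by more in wild type (difference 1.69, SE 0.18, adjusted p = 0.00044).

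Interferon genes rose in both genotypes too, and a part of them by more in wild type. In knockout 50 of 54 rose and 1 fell, with a median log2 fold change of 0.54 against 1.65 in wild type, and the difference passed for 23 of 54, higher in wild type in each of the 23. Without water replicate 3 the response was higher in wild type for 43 and lower for 1. Of all tested genes, 10.4% rose and 10.5% fell in knockout. The difference passed for 8.24% of all tested genes, and for 4063 of 15448 without water replicate 3. For Irf7 the difference was 2.45, SE 0.40, adjusted p = 0.0043, and for Oasl1 it was 1.65, SE 0.31, adjusted p = 0.0085. Mmp9 rose from 16.1, 12.7 and 17.7 to 28.3, 33.9 and 25.7 CPM in knockout, and its response was larger in wild type (difference 3.1, SE 0.43, adjusted p = 0.0016). Retnla did not reach the level for testing in the knockout libraries.

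The next 6 genes were chosen after their values were seen. Socs3 fell in wild type but rose in knockout, from 74, 74.6 and 86.3 to 140.1, 157 and 147 CPM (log2 0.92, adjusted p = 5e-14), and the difference was -3.56, SE 0.14, adjusted p = 2.1e-07. Socs1 likewise rose in knockout (log2 0.80, adjusted p = 1.2e-06, difference -2.25, SE 0.16, adjusted p = 3.5e-05), as did Cd80 (log2 0.85, adjusted p = 1.6e-09, difference -1.47, SE 0.17, adjusted p = 0.00056). Cish was at 21.3, 21.5 and 22.7 CPM in knockout water and 22.2, 24.2 and 25.3 CPM with MDP (difference -3.41, SE 0.37, adjusted p = 0.00056). Padi4 and C5ar1 rose in wild type but did not pass in knockout (log2 -0.089 and 0.054), with differences of 2.27, SE 0.28, adjusted p = 0.00077 and 1.44, SE 0.14, adjusted p = 0.00023.

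Gene groups differed between the genotypes as well. Their counts stand against 10.4% higher and 10.5% lower of all tested genes in knockout. The difference passed for 8.24% of all tested genes, and for 4063 of 15448 without water replicate 3. Of 39 cell cycle genes 37 fell in knockout (median log2 fold change -0.65), and the difference passed for 10 of 39, and for 37 of 39 without water replicate 3. Of 24 cholesterol synthesis genes 1 rose and 7 fell in knockout, with the difference past the threshold for 10, all higher in wild type (17 without water replicate 3). Of the stromal genes 32 were tested in knockout, where 4 rose and 2 fell, near the shares of all tested genes. Stromal genes took 0.073% to 0.0761% of the counts in knockout water and 0.0767% to 0.0848% with MDP. The mean log2 CPM of the stromal markers, scaled over all 18 libraries, was 0.86, 0.0936 and 0.443 in knockout water and 0.759, 0.215 and -0.165 with MDP. In wild type it was 4.72, 4.56 and 2.45 in water and 1.22, 0.973 and 1.38 with MDP. With MDP the 2 measures thus put the genotypes in opposite order. Whether the starting level of stromal genes limited their fall in knockout was not tested. Of 57 stromal genes tested for a difference, 19 had a lower response in wild type (44 without water replicate 3). The part of stromal RNA in the other genotype differences was not tested.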

How the data were processed

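RNA-seq of 18 libraries was deposited as one table of counts per gene with FPKM values beside them. Per the labels' protocols, poly(A) RNA was made into directional libraries. Per the submitters' processing notes, the authors used HISAT2 2.0.5, featureCounts 1.5.0-p3 and GRCm39 to make the counts. The annotation release and the counting settings, strand use among them, are not given in the sources used here. The deposited FPKM values were made by the authors from the same libraries, and here they served only to compare levels between genes.

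Libraries were grouped by the labels' genotype and treatment. The counts were tested with edgeR 4.0.16 (R 4.3.3) in its quasi-likelihood test, after TMM scaling and filterByExpr at a minimum count of 10, with Benjamini-Hochberg adjustment over all tested genes and a threshold of 0.05. "Rose", "fell", "higher" and "lower" with a fold change mean past that threshold, and "passed" means the same. Fold changes are log2 of MDP over water, and standard errors come from the quasi-likelihood F value. The fit held the 6 compared libraries, the knockout comparison its own 6, and the difference between genotypes all 12. Each claim was repeated without water replicate 3. No library had less than 99.86% of its counts in tested genes. CPM values of the genotypes were scaled separately. Every per-sample column of the table was matched to a library.

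Named genes were members of the lists; outside the lists, the 10 largest rises and 10 largest falls not put with the stromal genes, and the 5 largest falls that were, among genes that passed with and without water replicate 3, without overlap and with at least 5 CPM in the higher group; and a panel for the genotypes. Unnamed gene models were skipped in the rankings outside the lists. Genes outside this rule are said to have been chosen after their values were seen. The members and lists were chosen with earlier results of these data known. Alternatives were other scaling, no filter, DESeq2 1.42.0, limma 3.58.1 with voom sample weights, all 18 libraries in 1 fit, a replicate block, a test beyond 1.5-fold, stromal genes left out, and each library left out in turn. Scripts were tested on simulated data. Promoter windows were RefSeq's (GRCm38.p6), matched by symbol: 509 of the 731 genes that rose and 435 of the 573 that fell had one. Intervals on read counts cover counting error only.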

Additional observations from a re-analysis of the deposited data

Results flagged for a closer look

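The response to MDP differed between wild type and TLR4 knockout by the test of the difference itself (edgeR quasi-likelihood test over 15013 genes) in 10 genes named here. Of the panel of 12 genes, the response was larger in wild type for the interferon amplifier gene Irf7 (difference 2.45, SE 0.40, adjusted p = 0.0043), for the antiviral gene Oasl1 (1.65, SE 0.31, adjusted p = 0.0085), for the gelatinase gene Mmp9 (3.1, SE 0.43, adjusted p = 0.0016) and for the chemokine gene Ccl5 (1.69, SE 0.18, adjusted p = 0.00044). The genes of the panel were themselves chosen with earlier results of these data known, and the remaining 6 after their values were seen. The response was lower in wild type for the signalling suppressor genes Socs3 (-3.56, SE 0.14, adjusted p = 2.1e-07), Socs1 (-2.25, SE 0.16, adjusted p = 3.5e-05) and Cish (-3.41, SE 0.37, adjusted p = 0.00056) and for the costimulatory gene Cd80 (-1.47, SE 0.17, adjusted p = 0.00056), and higher for Padi4 (2.27, SE 0.28, adjusted p = 0.00077) and the C5a receptor gene C5ar1 (1.44, SE 0.14, adjusted p = 0.00023). In all 3 MDP libraries of the wild type, each of these genes lay on the same side of all 3 water libraries. They had all passed in those same libraries, so this adds no support and does not bear on the knockout. Over all tested genes the MDP libraries lay above all water libraries for 19.7% and below them for 18.8%.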

How the results depend on the processing

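The number of genes past the threshold in wild type (1304, of which 731 higher and 573 lower) differed between alternatives. It was 3810 (1725 higher, 2085 lower) with all 18 libraries in 1 fit, 2443 (1298 and 1145) with the DESeq2 Wald test, 5783 (2898 and 2885) with limma voom and sample quality weights, and 399 (256 and 143) for a change beyond 1.5-fold. It was 1296 with DESeq2's size factors, 1236 with no filter and 1246 with stromal genes left out. Leaving out 1 library gave 186 to 5552 genes, 137 to 2679 higher and 49 to 2873 lower. The highest of these is without water replicate 3 and the lowest without MDP replicate 2; without water replicates 1 and 2 the counts were 574 and 544, and without MDP replicates 1 and 3 they were 216 and 219. Knockout calls (2955) numbered 427 with all 18 libraries in 1 fit, and genotype differences (1237) numbered 1981 with DESeq2 and 646 to 4063 with 1 library left out, the highest again without wild-type water replicate 3 and the lowest without knockout MDP replicate 3. The causes were not tested. Of 133 genes followed singly that passed, all passed again in the same direction with all 18 libraries, with DESeq2, with voom weights and without water replicate 3. Of all 1304 genes, 98.8%, 99.9%, 100% and 100% did so, so these genes were not set apart. Passing without water replicate 3 was also part of the rule for naming genes outside the lists. The test beyond 1.5-fold kept 73, leaving out an MDP library 44 to 46, leaving out water replicates 1 or 2 78 and 79, and no filter 115. Cxcl3 changed sign with voom weights (log2 2.27, against -1.53).

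Replicate numbers did not pair the samples: deviations of same-numbered samples correlated at r = -0.0708, 0.055 and 0.0297 in wild type and 0.0697, -0.0204 and 0.0135 in knockout, and not every sample correlated best with its own number. With a replicate block, 359 genes passed in wild type (241 higher, 118 lower), all among the 1304, with 66 of the 133 genes kept, and 2827 in knockout and 977 for the difference.

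With 3 libraries a group, 1 of them apart, a gene that misses the threshold is not shown to be unchanged. Genes that rest on few reads, such as Retnla in water, carry wide counting intervals.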

Other observations

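Of 30 lysosome genes 0 rose and 1 fell with 6 libraries, against 5.13% and 4.02% of all tested genes. The gene that fell was Atp6v1b2, a proton pump subunit, from 1062, 1109 and 997 to 813, 791 and 821 CPM (log2 -0.39, SE 0.091). Without water replicate 3, 12 of them rose and 5 fell, against 18.1% and 19.5% of all tested genes. Of 23 genes of the unfolded protein response and its factor ATF4, 0 rose and 1 fell, the protein disulphide isomerase gene Pdia4, from 461, 476 and 289 to 199, 189 and 208 CPM (log2 -1.04, SE 0.20). Without water replicate 3, 4 of them rose and 11 fell.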
